A study of Mus musculus with 9 samples.

Results

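Voltage-gated calcium channels are described here by 10 of their subunit genes in newborn mouse brain: Cacna2d1, Cacna2d2, Cacna2d3, Cacna1a, Cacna1b, Cacna1c, Cacna1d, Cacna1g, Cacnb4 and Cacng4. The 10 genes were found by their symbol among 19938 genes measured on 9 Affymetrix Mouse Gene ST 1.0 microarrays, each gene by whichever of its probe sets was brightest on average. All 10 were measured, none was filtered out, and no value of any of them lay below the lower quartile of its array. They were chosen by a look at earlier results of these same arrays, above all the low Cacna2d1 values in KO and the high Cacng4 values in HET. Their values are therefore given as a description, and the fit's adjusted p beside them is no independent test.

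The RNA came from cells of the ventricular zone, the progenitor layer that lines the cerebral ventricles, taken from newborn C57BL/Ka mice and lysed without culture. Untreated pups of 3 genotypes were compared on 3 arrays each: WT pups were Prdm16+/+, HET pups Prdm16LacZ/+, and KO pups Prdm16LacZ/LacZ. PRDM16 is a zinc finger protein that regulates transcription in neural and blood stem cells and in brown fat. The labels name no Cre or promoter that would limit the LacZ allele to some cells, and they do not describe how it was built or where the Prdm16 probes lie in it. Whether the arrays of a genotype stand for separate pups or litters is not said in the labels, so every p-value covers array-to-array spread alone. In each genotype the Xist values given below differ widely between arrays, so these are not all repeats of 1 RNA. Part of the spread may still be technical.

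A voltage-gated calcium channel opens when the membrane is depolarized and lets calcium into the cell, where it drives transmitter release, gene transcription and growth of processes. The pore is a single alpha1 protein, encoded by a Cacna1 gene, and its type (L, P/Q, N, R or T) sets the voltage range and kinetics of the current. An extracellular alpha2delta protein and a cytoplasmic beta protein bring most alpha1 proteins to the membrane and tune their gating. The gamma family is split: some members bind muscle channels, and others, known as TARPs, are auxiliary subunits of AMPA-type glutamate receptors. In the developing brain, calcium currents are known from neurons and glial precursors, and L-type and T-type currents also from progenitors.

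The labels and the tissue were checked first. Prdm16 itself ran from 7.23 to 7.62 in WT, from 7.00 to 7.34 in HET and from 5.69 to 6.41 in KO on the log2 scale of the deposited values, and fell from WT to KO by 1.38 on the log2 scale (SE 0.18; adjusted p = 0.010 by limma and Benjamini-Hochberg, 0.076 without WT replicate 1 and 0.069 without WT replicate 2). The 13 radial glia and ventricular zone markers had a mean log2 value of 8.30 to 8.58 on every array, and none of them lay below the lower quartile on all arrays. The 15 markers of postmitotic neurons averaged 8.997 to 9.44, so neuronal transcripts were present as well. Xist was at 10.04 to 11.002 on WT replicate 1, HET replicate 1, KO replicate 2 and KO replicate 3, and at 4.42 to 4.99 on the other 5 arrays. The Y-linked Eif2s3y was at 4.03 on HET replicate 1 and 4.36 on KO replicate 3, at 6.85 on KO replicate 2, and at 8.47 or above on the rest. WT replicate 1 and KO replicate 2 thus had high Xist together with Eif2s3y well above that of HET replicate 1 and KO replicate 3. The reason was not tested. The labels do not give the sex of the pups, and HET replicate 1 and KO replicate 2 also took the lowest array weights in limma (0.547 and 0.364).

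Counted together, 1 of the 10 calcium channel genes was called lower and none higher in KO against WT, where 0.286% of all genes were called lower, 0.166% higher and 0.451% in all. In that comparison 8 of the 10 had a change above 0 (median 0.09, against 0.006 over all genes). The groups did not overlap for 2 genes that were higher, Cacnb4 and Cacng4, and for 1 that was lower, Cacna2d1, where 5.63% and 4.34% of all genes did so (9.98% in all). The change had an unadjusted p under 0.05 for Cacna2d1 and Cacng4, beside 6.15% of all genes. In HET against WT none of the 10 was called by limma, and only Cacng4 had an unadjusted p under 0.05. There the background was 0% called and 4.05% with an unadjusted p under 0.05, and limma called no gene under any of the 20 alternatives. Cacng4 and Cacna1d were higher on all HET than on all WT arrays and none of the 10 was lower on all, where 3.75% and 3.1% of all genes were (6.85% in all). In KO against HET none of the 10 was called, beside 0.206% of all genes, and Cacna2d1, Cacna1c and Cacna1g had an unadjusted p under 0.05, beside 6.16%. The groups did not overlap for Cacna1c, which was higher, and Cacna2d1, which was lower, beside 3.45% and 3.09% of all genes (6.54% in all). As the 10 genes were picked with these results known, nothing is read from their shares. The comparisons share arrays: WT enters the first and the second, HET the second and the third.

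Cacna2d1 was the only gene of the 10 to pass the fit, as a lower value in KO than in WT. It encodes alpha2delta-1, the subunit that binds gabapentin and that serves as a receptor for thrombospondins in synapse formation. Its log2 value was 8.61, 7.82 and 8.27 on the WT arrays, 8.02, 7.76 and 7.65 on the HET arrays, and 7.34, 6.50 and 7.03 on the KO arrays. All KO arrays lay below all WT and all HET arrays, while WT and HET overlapped. The means were ordered WT (8.23, SD 0.40, n = 3), HET (7.81, SD 0.19, n = 3) and KO (6.96, SD 0.42, n = 3). Cacna2d1 was 2.42-fold lower in KO than in WT (log2 change -1.28, SE 0.23, 95% interval -1.78 to -0.77), and it passed the fit across all genes narrowly (limma, Benjamini-Hochberg adjusted p = 0.047). The difference between HET and WT was -0.43 (SE 0.23, 95% interval -0.93 to 0.08) and did not pass (limma, adjusted p = 0.99). KO lay below HET by a log2 difference of -0.85 (SE 0.23, limma, adjusted p = 0.40), with no overlap and no call.

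A second Cacna2d1 probe set gave the same picture. It read 8.28, 7.66 and 8.24 in WT, 7.85, 7.80 and 7.61 in HET, and 7.22, 6.83 and 6.41 in KO. Here too the KO arrays were lowest, with no overlap. With every probe set tested, its KO against WT change was -1.24 (SE 0.21, limma, Benjamini-Hochberg adjusted p = 0.040), while that of the first probe set had an adjusted p of 0.052. The KO change of Cacna2d1 stayed between -1.48 and -1.05 over all 20 alternative settings, but it remained a call in 5 of them. Among these 5 was the mean of both probe sets (-1.26, limma, adjusted p = 0.024), and the other settings used the first probe set. In limma fits with Benjamini-Hochberg adjustment, the adjusted p was 0.24, 0.060 and 0.19 without WT replicates 1, 2 and 3, 0.072, 0.11 and 0.082 without HET replicates 1, 2 and 3, and 0.057, 0.12 and 0.18 without KO replicates 1, 2 and 3. The call was thus lost whichever 1 of the 9 arrays was left out.

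**Figure D1:**
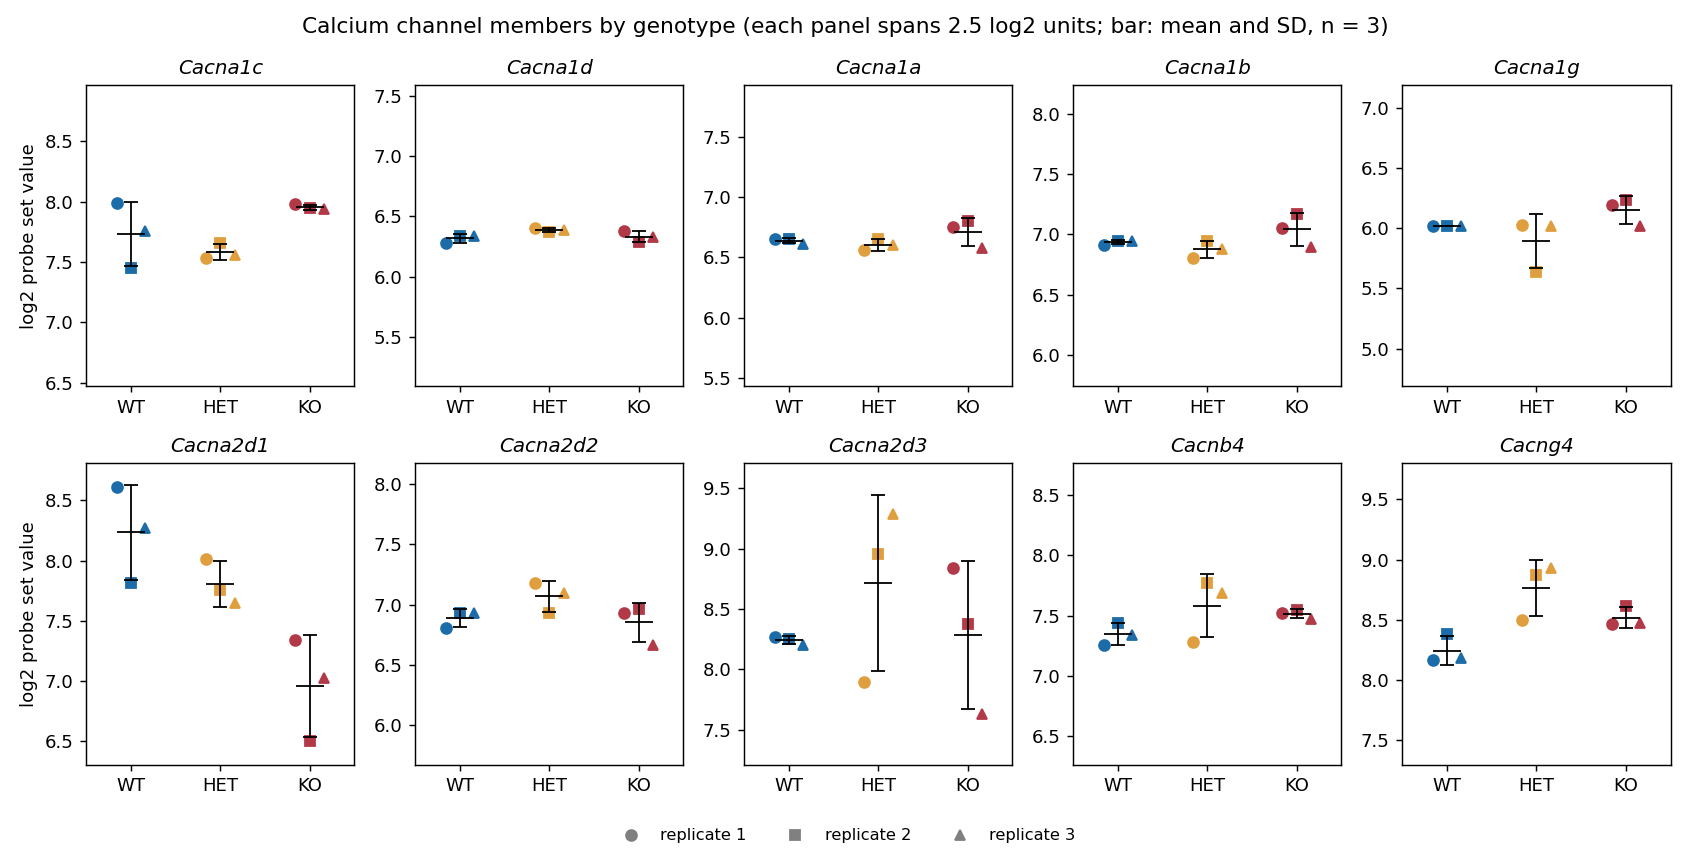
Log2 probe set value (vertical axis, with the same span in every panel) of the 10 calcium channel genes by genotype; points are arrays, marked by replicate number, and bars are the mean and SD of 3 arrays. The KO arrays of Cacna2d1 sit between 6.50 and 7.34, below all WT and HET arrays, and Cacna2d3 is narrow in WT and wide in HET and KO.

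The sequences before the start sites of the 3 alpha2delta genes are shown so that the family member that was called, Cacna2d1, can be read beside the others, which were not. Each line gives the 250 bases upstream of the annotated start, 5′ to 3′ on the gene's strand, from RefSeq on GRCm38.p6, with the hexamer GGGCGG in capitals on either strand (read as CCGCCC on the other). It is the core of the GC box that Sp-family factors bind. The windows are chr5:15934441-15934690 (plus strand) for Cacna2d1, chr9:107399630-107399879 (plus strand) for Cacna2d2 and chr14:29721865-29722114 (minus strand) for Cacna2d3.
Cacna2d1: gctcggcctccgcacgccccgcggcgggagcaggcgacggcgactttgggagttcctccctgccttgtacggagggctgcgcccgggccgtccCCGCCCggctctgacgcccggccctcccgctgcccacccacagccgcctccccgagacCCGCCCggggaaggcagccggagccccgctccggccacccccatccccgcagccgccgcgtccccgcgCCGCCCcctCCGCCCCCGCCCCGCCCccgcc
Cacna2d2: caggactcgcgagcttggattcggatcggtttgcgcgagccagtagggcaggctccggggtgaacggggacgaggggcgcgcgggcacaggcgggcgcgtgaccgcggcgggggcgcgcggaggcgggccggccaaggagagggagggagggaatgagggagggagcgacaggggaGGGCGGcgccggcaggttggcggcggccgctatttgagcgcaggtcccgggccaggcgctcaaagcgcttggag
Cacna2d3: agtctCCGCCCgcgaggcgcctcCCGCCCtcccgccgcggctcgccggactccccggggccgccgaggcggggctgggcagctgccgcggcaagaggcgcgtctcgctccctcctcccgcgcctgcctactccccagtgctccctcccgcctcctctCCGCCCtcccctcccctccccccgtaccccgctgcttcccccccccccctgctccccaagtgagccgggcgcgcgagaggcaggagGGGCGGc
The Cacna2d1 window held 6 such hexamers over both strands with overlaps counted, 4 of them close together at the end next to the start site, the Cacna2d3 window 4 and the Cacna2d2 window 1. Of 32851 windows of this length in the same table, 32.7% held at least 1 hexamer, 4.09% held 4 or more and 1.93% held 5 or more. GC content was 82.4%, 80% and 74.4% for Cacna2d1, Cacna2d3 and Cacna2d2, against a median of 52.4%, and the windows held 36, 30 and 34 CpG dinucleotides against a median of 6. None of the 3 held CCAAT on either strand, against 33.8% of all windows. The same was true of TATAAA (12.4% of windows) and of CACGTG (6.02% of windows). A match describes the letters only. In all, 12 windows of 7 of the 10 genes were in the table; 1 window each of Cacna1c and Cacnb4 also held 6 hexamers and 1 of Cacna1d held 5. Cacna1a, Cacna1g and Cacng4 were not in it.

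On chromosome 5, the next protein-coding gene after Cacna2d1 in the RefSeq table is Hgf, which encodes hepatocyte growth factor, the ligand of the Met receptor. The neighbours were looked up after the values had been seen. Hgf read 6.85, 6.81 and 6.68 in WT, 6.14, 6.57 and 6.12 in HET, and 4.15, 4.20 and 4.09 in KO. The 3 genotypes did not overlap on any array, in the order WT, HET, KO. Hgf fell in KO against WT (log2 change -2.63, SE 0.12, adjusted p = 6.4e-06 by limma) and in KO against HET (-2.13, SE 0.12, adjusted p = 6.0e-05), and both calls held under all 20 alternatives. Its 3 KO values lay below the lower quartile of their arrays (4.53 to 4.68 over the 9 arrays), where a signal above background was not tested, so that these log2 changes may understate the fall. Sema3c, a secreted guidance cue 5 genes after Cacna2d1, was lower on every KO array than on every WT array (log2 difference -0.51, SE 0.099) and did not pass (limma, adjusted p = 0.073). Cd36 (-0.04) and Gnat3 (-0.07) on the same side, and Pclo (0.05), Sema3e (0.01), Speer3 (-0.06) and Sema3a (0.02) on the other, showed KO against WT differences near 0 and no call.

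The genes whose values ran most like those of Cacna2d1 over the 9 arrays were Map3k19, Slco1c1, Pls1, Enkur and Ntrk2. Likeness was the root mean square difference of gene-centred log2 values among 502 genes of sufficient spread, and it was 0.222, 0.230, 0.240, 0.242 and 0.262 for the 5. Slco1c1, a thyroid hormone transporter, read 10.04, 9.91 and 9.70 in WT, 9.68, 9.47 and 9.01 in HET, and 8.94, 8.44 and 8.75 in KO, with no overlap between the genotypes. It fell in KO against WT (log2 change -1.17, SE 0.18, adjusted p = 0.020 by limma and Benjamini-Hochberg), as did Pls1, an actin-bundling plastin (-0.98, adjusted p = 0.017), and Map3k19, a kinase (-1.0002, adjusted p = 0.040). Enkur, a protein of motile cilia and sperm tails, differed by -1.18 (SE 0.22, limma, adjusted p = 0.054) and Ntrk2, the receptor of brain-derived neurotrophic factor, by -0.74 (SE 0.19, adjusted p = 0.25), and neither passed. Like Cacna2d1, the 5 were chosen over all 9 arrays, so their shared direction is fixed by the choice. Without 1 array, the call of Map3k19 was lost whichever array it was (limma, adjusted p 0.052 to 0.22). That of Slco1c1 was lost without WT replicates 1, 2 or 3, HET replicate 2, or KO replicates 2 or 3 (0.056 to 0.14), and that of Pls1 without WT replicates 1, 2 or 3 or KO replicate 1 (0.051 to 0.099).

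**Figure D2:**
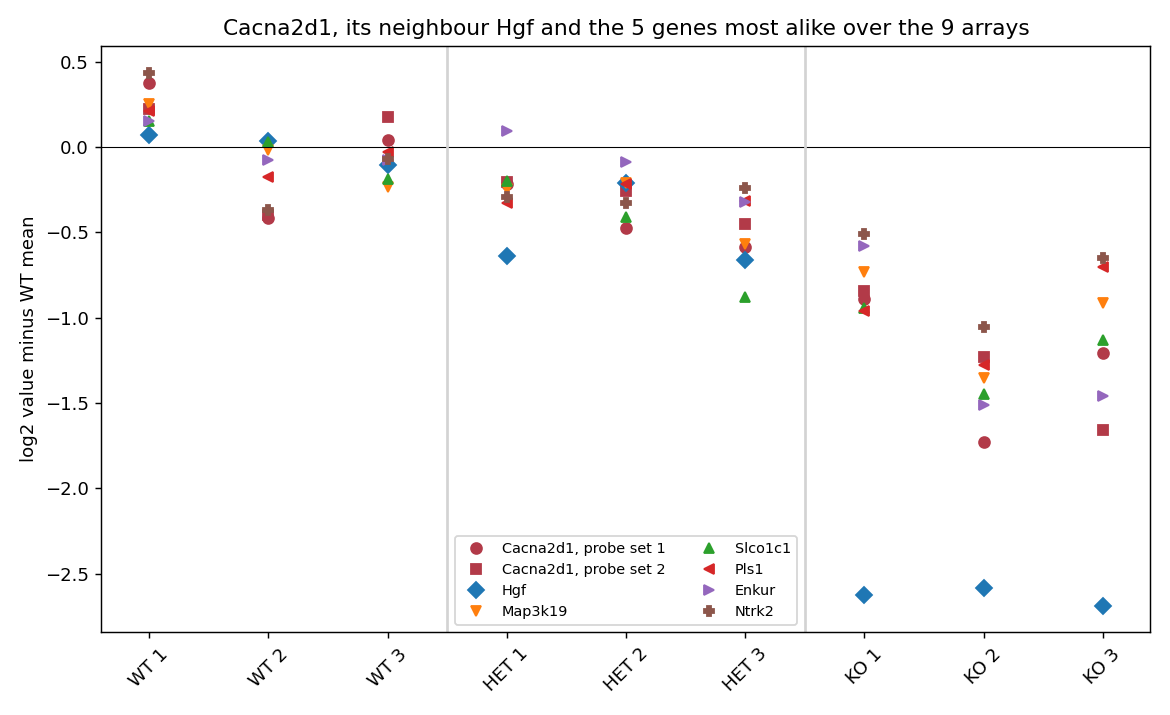
Log2 value minus the gene's WT mean (vertical axis) on each of the 9 arrays (horizontal axis) for both Cacna2d1 probe sets, the neighbouring Hgf and the 5 genes most alike to Cacna2d1. The KO arrays lie below 0 for every gene drawn, and Hgf lies lowest, near -2.6.

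The mean levels of the astrocyte and of the ependymal markers were, like Cacna2d1, lowest on the KO arrays, and in bulk tissue fewer cells of a type cannot be told apart from less RNA per cell. Of 9 astrocyte markers, 3 fell in KO against WT and 0 rose, where 0.286% of all genes were called lower. They were Apoe, the main brain lipoprotein (log2 change -0.86), Clu, a secreted chaperone (-1.05), and Aqp4, the water channel of astrocyte endfeet (-1.02), with limma adjusted p of 0.0090, 0.012 and 0.033. The Apoe call was lost without WT replicates 1 or 2 (limma, adjusted p 0.057 and 0.063), the Clu call without WT replicates 1 or 2 or KO replicates 2 or 3 (0.057 to 0.084), and the Aqp4 call without any array except HET replicate 2 and KO replicate 2 (0.052 to 0.17). Aldh1l1, a folate enzyme of astrocytes, was higher on every KO array (7.56 to 7.68) than on every WT array (7.18 to 7.51), by 0.21 (SE 0.12), and did not pass (limma, adjusted p = 0.90). The mean of the 9 markers was 7.56 to 7.75 on WT arrays, 7.44 to 7.83 on HET arrays and 7.04 to 7.10 on KO arrays. The order of this mean within each genotype differed from that of Cacna2d1. HET replicate 2 had the highest mean of the 9 arrays and a Cacna2d1 value of 7.76, between those of the other HET arrays. KO replicate 2 had the highest mean and, in the first probe set, the lowest Cacna2d1 value of the KO arrays. The ependymal mean was 5.858, 5.854 and 5.672 on HET replicates 1, 2 and 3, and 5.529, 5.308 and 5.319 on the KO replicates. These were the orders of the first Cacna2d1 probe set, though HET replicates 1 and 2, and KO replicates 2 and 3, lay close together. The second Cacna2d1 probe set had another order within KO (7.22, 6.83 and 6.41). Within WT the order of the ependymal mean differed from that of Cacna2d1 (5.863, 5.899 and 5.840). Enkur, on the ependymal list, was also chosen above for its likeness to Cacna2d1. Orders of 3 arrays were not tested. Of 9 ependymal markers, none was called in KO against WT, beside 0.451% of all genes. All 9 had a change below 0 (median -0.49, against 0.006 over all genes), and their mean was 5.84 to 5.899, 5.67 to 5.86 and 5.31 to 5.53 on WT, HET and KO arrays. None of the astrocyte markers and 1 of the ependymal markers lay below the lower quartile on every array. The part of these cells in the Cacna2d1 change was not tested.

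No difference passed the fit for the other alpha2delta genes, and their differences from Cacna2d1 were not tested. Cacna2d2, whose loss causes ataxia and seizures in mice, read 6.80, 6.93 and 6.93 in WT, 7.18, 6.93 and 7.10 in HET, and 6.93, 6.96 and 6.67 in KO. All 3 genotypes overlapped, and 4 arrays carried one identical value, as 19.1% of genes did on 4 or more arrays. Its KO against WT difference was -0.03 (95% interval -0.26 to 0.19), and HET against WT was 0.18 (SE 0.10, limma, adjusted p = 0.99). Cacna2d4, the alpha2delta gene known from the retina, differed by -0.02 between KO and WT.

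Cacna2d3, a subunit known from synapse formation and pain sensing, had the widest spread of the 10 genes within HET and within KO. It read 8.27, 8.25 and 8.21 in WT, 7.89, 8.96 and 9.29 in HET, and 8.84, 8.38 and 7.63 in KO. The WT arrays lay within an SD of 0.03, whereas the SD was 0.73 in HET and 0.61 in KO, and all 3 genotypes overlapped. The differences were 0.04 for KO against WT (SE 0.35, 95% interval -0.73 to 0.82), 0.47 for HET against WT and -0.43 for KO against HET, with no call by limma. HET replicate 1 and KO replicate 3, its lowest arrays, were also the arrays with high Xist and the lowest Eif2s3y.

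Genes that ran like Cacna2d3 were looked up after its values had been seen. Among 1011 genes of sufficient spread the closest were Mdga2, a synaptic adhesion regulator (root mean square difference 0.076), Neto1, an auxiliary subunit of kainate receptors (0.115), and Cacna1e, the pore of the R-type calcium channel (0.117). Cacna1e read 8.04, 8.17 and 8.14 in WT, 7.79, 8.64 and 8.86 in HET, and 8.54, 8.21 and 7.37 in KO. Its HET replicate 1 and KO replicate 3 were likewise the lowest of their groups. As these genes were chosen for likeness to Cacna2d3, that shared pattern is fixed by the choice. The mean of the 15 neuron markers was 8.997, 9.35 and 9.44 on HET replicates 1, 2 and 3, 9.27, 9.16 and 9.08 on KO replicates 1, 2 and 3, and 9.09 to 9.12 in WT, so it had the same order within HET and within KO as Cacna2d3. The part of neurons in these values was not tested. The mean of 11 oligodendrocyte lineage markers moved less, from 5.84 to 6.09 over all arrays.

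**Figure D3:**
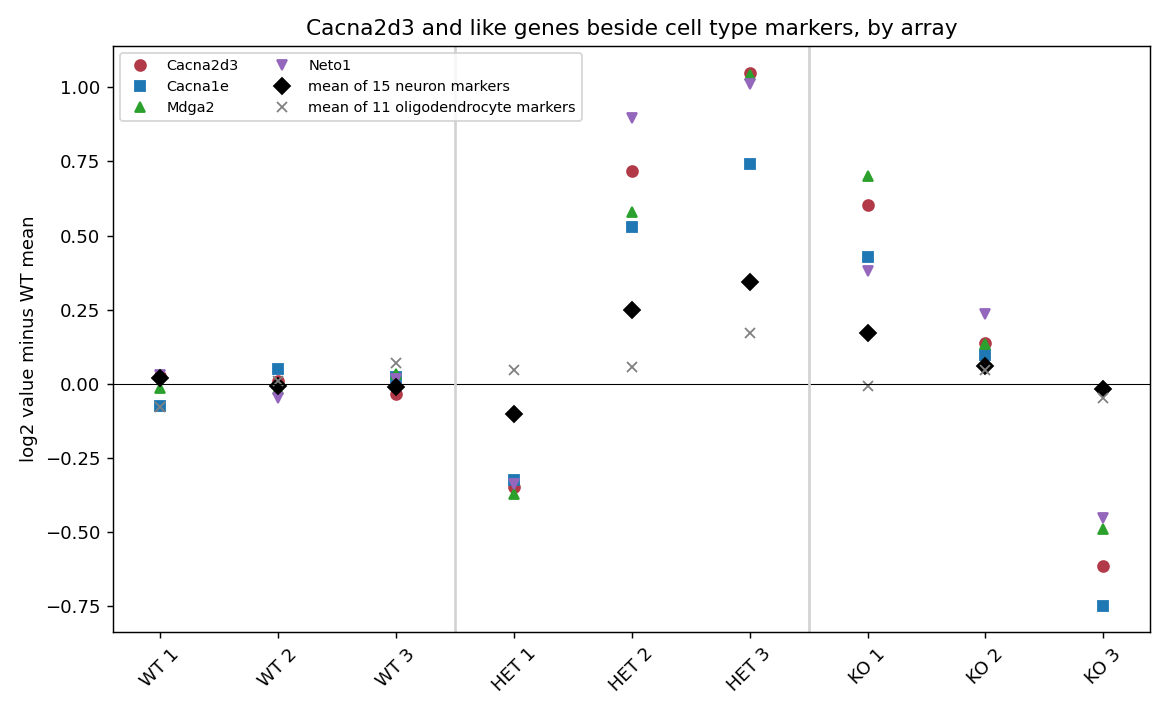
Log2 value minus the WT mean (vertical axis) of Cacna2d3, Cacna1e, Mdga2 and Neto1 on each array, beside the mean of 15 neuron markers and of 11 oligodendrocyte lineage markers. HET replicate 1 and KO replicate 3 lie below the WT mean for the 4 genes, and HET replicates 2 and 3 and KO replicates 1 and 2 above it.

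None of the pore genes passed the fit in any comparison. Cacna1c, the L-type pore of heart and brain, came nearest: it read 7.99, 7.45 and 7.76 in WT, 7.53, 7.66 and 7.56 in HET, and 7.98, 7.95 and 7.94 in KO. Every KO array lay above every HET array, and the WT arrays spanned both. The log2 difference was 0.37 for KO against HET (SE 0.12, limma, unadjusted p = 0.010, adjusted p = 0.55), 0.22 for KO against WT and -0.15 for HET against WT. Cacna1d, the other main L-type pore of neurons, lay within 6.28 to 6.40 on all 9 arrays. Its HET arrays (6.40, 6.37 and 6.38) all exceeded its WT arrays (6.28, 6.34 and 6.34), by a log2 difference of 0.06 (SE 0.067), which is smaller than its error.

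The pores of transmitter release were nearly level. Cacna1a, the P/Q-type pore, read 6.65, 6.65 and 6.61 in WT, 6.56, 6.65 and 6.604 in HET, and 6.75, 6.80 and 6.58 in KO. Cacna1b, the N-type pore, read 6.91, 6.94 and 6.94 in WT, 6.81, 6.94 and 6.88 in HET, and 7.05, 7.17 and 6.90 in KO. Both were highest on KO replicates 2 and 1, and KO replicate 3 fell back among the other genotypes. The KO against WT differences were 0.07 (95% interval -0.10 to 0.25) and 0.11 (95% interval -0.08 to 0.30). Cacna1g, a T-type pore that opens at low voltage, carried one identical value of 6.02 on 5 arrays, including all of WT. It read 6.02, 5.64 and 6.02 in HET and 6.19, 6.24 and 6.02 in KO, so that its difference between KO and HET (0.25, SE 0.11, limma, adjusted p = 0.79) rested on 3 arrays.

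Cacnb4, a beta subunit of brain whose loss causes the lethargic phenotype in mice, read 7.25, 7.44 and 7.34 in WT, 7.28, 7.77 and 7.69 in HET, and 7.52, 7.55 and 7.47 in KO. All KO arrays lay above all WT arrays, by a log2 difference of 0.17 (SE 0.12, limma, adjusted p = 0.97). HET replicate 1 stayed within WT while the other two exceeded every KO array. The related Cacnb1 read 7.02, 7.00 and 6.98 in WT, 6.99, 7.20 and 7.17 in HET, and 7.21, 7.42 and 7.32 in KO, with all KO arrays above all others. Its KO against WT difference was 0.32 (SE 0.085, limma, adjusted p = 0.29), and Cacnb2 differed by 0.13 with overlap.

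Cacng4, a TARP known from oligodendrocyte precursors and young neurons, was higher on the HET arrays. It read 8.17, 8.38 and 8.18 in WT, 8.50, 8.87 and 8.93 in HET, and 8.46, 8.62 and 8.47 in KO. Every HET and every KO array lay above every WT array, and HET and KO overlapped. The log2 difference was 0.52 for HET against WT (1.44-fold, SE 0.12, 95% interval 0.26 to 0.78) and 0.27 for KO against WT (SE 0.12, 95% interval 0.01 to 0.53). Neither passed the fit across all genes (limma with Benjamini-Hochberg adjustment, adjusted p = 0.99 and 0.78), although the unadjusted p for HET was 0.0012. The HET difference stayed between 0.44 and 0.66 over the 20 alternatives, with an adjusted p from 0.11 to 1. On chromosome 11 Cacng4 lies between Cacng1 and Cacng5, whose HET against WT differences were both 0.03. Prkca, 2 genes after Cacng4, differed by 0.44 (SE 0.21), with overlap and no call. The other measured neighbours, Apoh, Cep112, Helz, Psmd12 and Pitpnc1, differed by -0.10 to 0.08.

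The genes that ran most like Cacng4, among 10015, were Dner (root mean square difference 0.068), Cnih2 (0.094), Pdgfra (0.095), Pithd1 (0.095) and Cpne4 (0.097). Dner encodes a neuronal Notch ligand, Cnih2 a further auxiliary subunit of AMPA receptors, and Pdgfra the growth factor receptor of oligodendrocyte precursors. Dner read 7.35, 7.47 and 7.32 in WT, 7.59, 8.06 and 8.002 in HET, and 7.76, 7.85 and 7.61 in KO, with WT below all other arrays. The HET against WT differences of the 5 genes ran from 0.35 to 0.50, and none passed. Of the 11 oligodendrocyte lineage markers, 2 lay above WT on all HET arrays, Pdgfra and Olig1 (0.36 and 0.22). None lay below, beside 3.75% and 3.1% of all genes. Pdgfra is 1 of the 5 genes chosen for likeness to Cacng4. The HET against WT changes of the list ran from -0.11 to 0.58. Of these 7 were above 0 and 4 below, Cspg4 (-0.05) and Sox10 (-0.08) among the latter. None of the 11 was called in any comparison, beside at most 0.451% of all genes.

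Among the other gamma genes, Cacng2, which encodes stargazin, the founding TARP, came close to the threshold. It read 8.09, 7.80 and 8.21 in WT, 8.16, 8.03 and 8.17 in HET, and 8.72, 8.53 and 8.60 in KO. Every KO array lay above every WT and HET array, and WT and HET overlapped. Cacng2 was 1.498-fold higher in KO than in WT (log2 difference 0.58, SE 0.11, 95% interval 0.34 to 0.82) without passing (limma, Benjamini-Hochberg adjusted p = 0.058). It did pass under 4 of the 20 alternatives, with adjusted p of 0.049 with the replicate number as a block, 0.030 with array weights, 0.045 without the dimmest genes and 0.0496 with the mean of its probe sets. A second Cacng2 probe set differed by 0.57 (SE 0.16, limma, adjusted p = 0.38).

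Cacng3, a TARP of forebrain neurons, read 6.59, 6.68 and 6.79 in WT, 6.70, 7.39 and 7.53 in HET, and 7.57, 7.21 and 7.38 in KO. KO lay wholly above WT, and HET replicate 1 alone of the HET arrays stayed within WT. The KO against WT difference was 0.70 (SE 0.19, limma, adjusted p = 0.29), and it passed under 4 of the 20 alternatives. There the limma adjusted p was 0.032 without HET replicate 1 and 0.038 with array weights. It was 0.040 with the Xist level as a covariate and 0.031 without HET replicate 1 and KO replicate 2. These last 2 settings were chosen after the data had been seen. In the settings without a call the limma adjusted p reached 0.89, without WT replicate 1. Cacng7 was also higher on all KO than on all WT arrays (0.22, SE 0.12), and Cacng5 was lower (-0.08, SE 0.090), neither with a call. With quantile normalization or median centring, the KO against WT differences of Cacng2 (0.55 and 0.60) and Cacng3 (0.69 and 0.71) kept their sign.

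**Figure D4:**
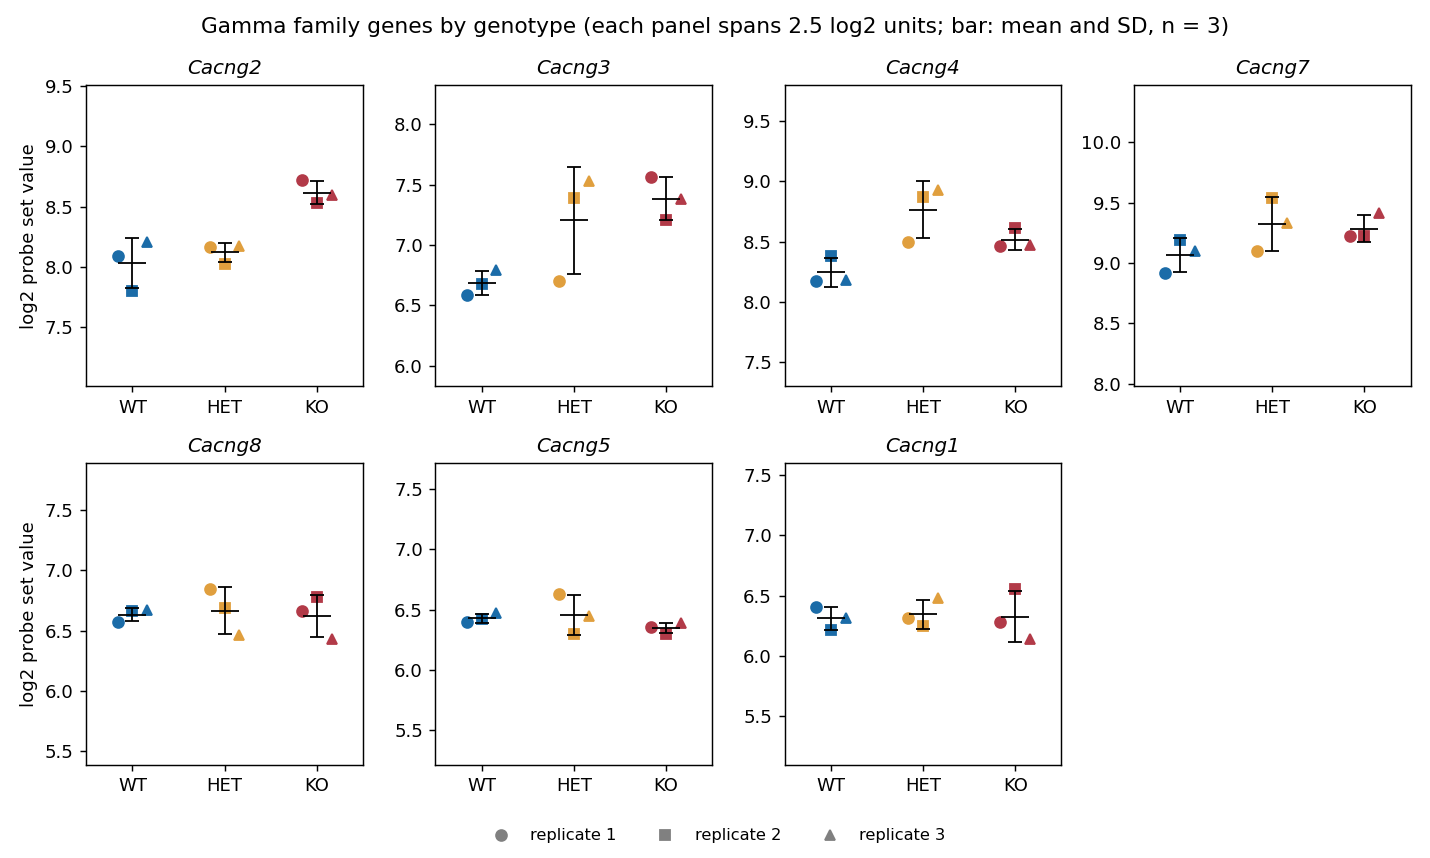
Log2 probe set value (vertical axis, with the same span in every panel) of the 7 measured gamma genes by genotype, with arrays as points marked by replicate number and the mean and SD of 3 arrays as bars. The KO arrays of Cacng2 (8.53 to 8.72) lie above its WT and HET arrays in the probe set drawn, and the WT arrays of Cacng4 (8.17 to 8.38) below its HET and KO arrays.

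Of 16 other calcium channel subunit genes, 14 were measured, and none was called in any of the 3 comparisons. Over all genes, 0.451% were called in KO against WT, 0% in HET against WT and 0.206% in KO against HET. Their KO against WT changes ran from -0.08 to 0.70 (median 0.02), with 4 higher without overlap (Cacnb1, Cacng2, Cacng3 and Cacng7) and 1 lower (Cacng5), beside 5.63% and 4.34% of all genes. The pore genes of this set, Cacna1e, Cacna1f, Cacna1h, Cacna1i and Cacna1s, differed by -0.07 to 0.07 between KO and WT, all with overlap.

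**Figure D5:**
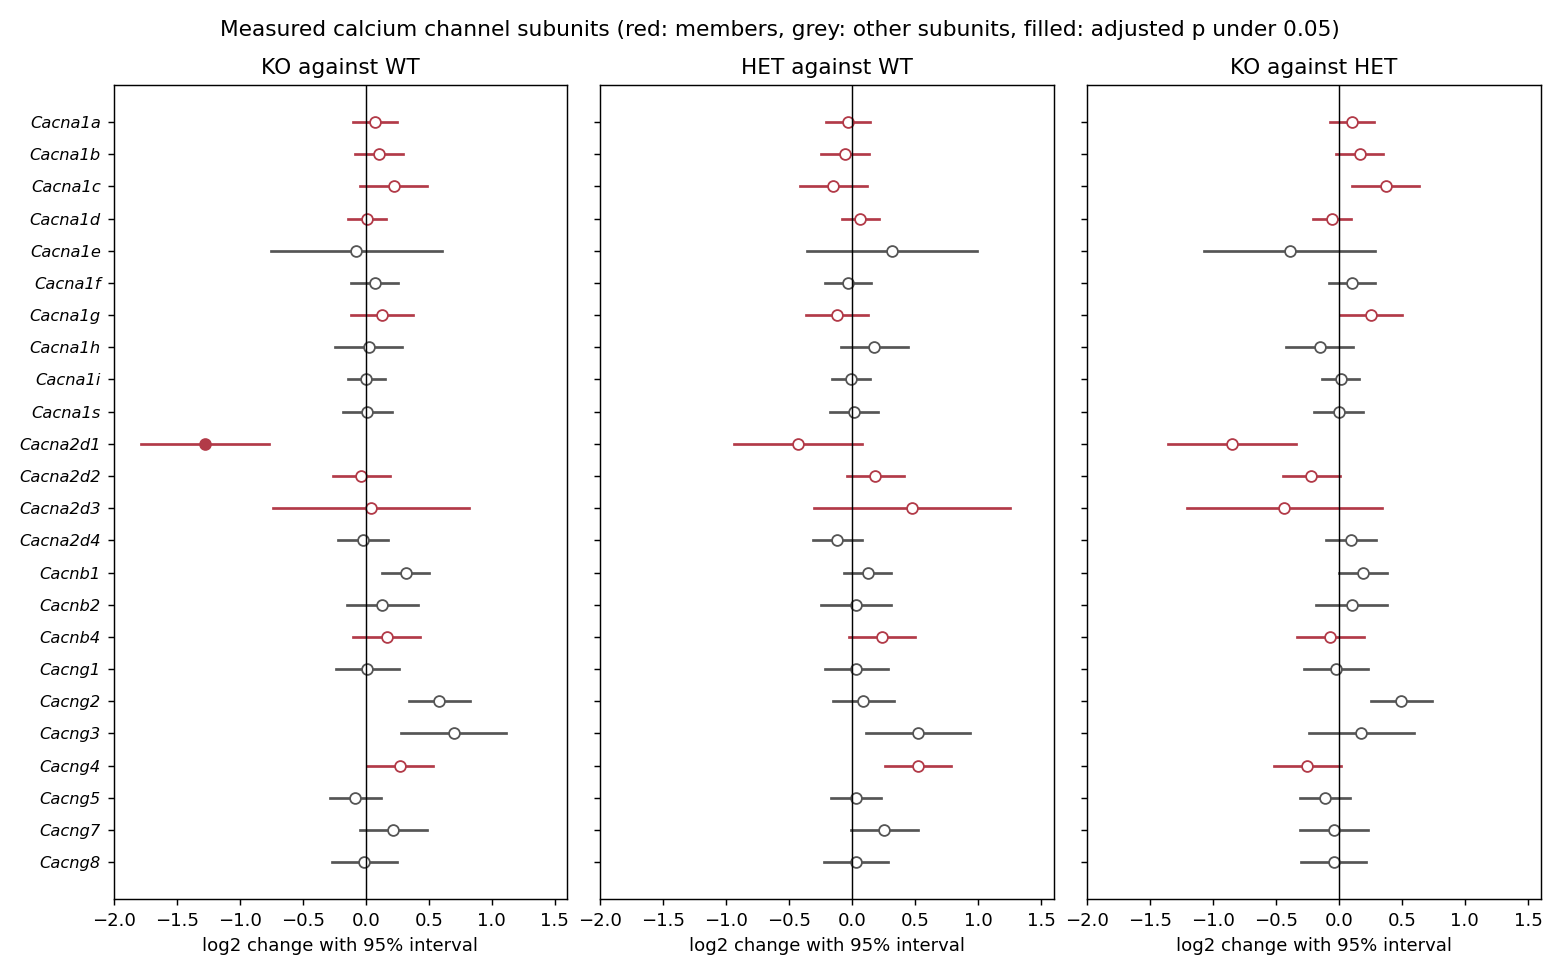
Log2 change with its 95% interval (horizontal axis) of the 24 measured calcium channel subunit genes in the 3 comparisons; red marks the 10 genes described, grey the 14 others, and a filled point an adjusted p under 0.05. Cacna2d1 in KO against WT, at -1.28, is the only filled point, and the intervals of Cacng4, Cacng2, Cacng3 and Cacnb1 lie above 0 in that panel.

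Genes that act with the channels were looked at in the same way. Over all genes, 0.451% were called in KO against WT, 0% in HET against WT and 0.206% in KO against HET. A count of 0 in lists of this size lies near these shares and is not read as a result. Among 22 measured inhibitors and binding partners none was called. In KO against WT, 3 of them were higher without overlap and 1 was lower, beside 5.63% and 4.34% of all genes. The lower gene, Cachd1, a protein related to alpha2delta, was lower on all KO and all HET arrays than on WT (log2 differences -0.42, SE 0.13, and -0.31, SE 0.13, limma adjusted p = 0.50 and 0.99). None of the 5 thrombospondin family genes was called; Thbs2, whose product is a ligand of alpha2delta-1, was likewise lower on all KO and all HET arrays (-0.27 and -0.21, SE 0.078), at values of 4.86 to 5.21 that lie below the array medians. None of 21 genes of calcium-dependent signalling to transcription, 18 of calcium stores, pumps and store-operated entry, and 10 calcium buffers was called in any comparison, with median KO against WT changes of 0.06, 0.01 and 0.03.

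Of 9 AMPA receptor subunit and auxiliary genes, which the TARPs serve, 1 was called higher in KO against WT and none lower, where 0.166% and 0.286% of all genes were. Gria1, the GluA1 subunit, read 8.71, 8.71 and 8.79 in WT, 9.04, 9.23 and 9.19 in HET, and 9.69, 9.47 and 9.36 in KO. The 3 genotypes did not overlap, in the order WT, HET, KO. Gria1 rose in KO against WT (log2 change 0.77, SE 0.097, adjusted p = 0.0083 by limma and Benjamini-Hochberg), with an adjusted p of 0.064 without WT replicate 1 and 0.060 without WT replicate 2. Its HET against WT difference was 0.41 (SE 0.097, adjusted p = 0.99). Gria3 (-0.49), Gria4 (0.24) and Cnih2 (0.15) did not pass.

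Markers of other cells stood as follows beside these values. Of 11 GABAergic and ventral forebrain markers, 2 rose in KO against WT, where 0.166% of all genes were called higher. They were the neuropeptides Sst (1.53, SE 0.27, limma adjusted p = 0.047) and Npy (1.27, SE 0.19, limma adjusted p = 0.020); the list's mean was 8.46 to 8.59 in WT, 8.61 to 8.70 in HET and 8.87 to 9.01 in KO. The Sst call was lost without any array except HET replicate 3 (limma, adjusted p 0.054 to 0.26) and the Npy call without WT replicates 1, 2 or 3 or KO replicate 3 (0.085 to 0.14). The list's means were highest on the KO arrays, as were the values of Cacng2 (first probe set) and Gria1, and its part in them was not tested. None of 15 neuron, 9 cortical glutamatergic neuron, 13 radial glia, 12 endothelial, mural and smooth muscle, 8 skeletal and cardiac muscle, 7 choroid plexus, 7 microglia or 12 thalamus, midbrain and hindbrain markers was called in any comparison. The shares over all genes were 0.451% in KO against WT, 0% in HET against WT and 0.206% in KO against HET. In KO against HET, astrocyte genes Apoe, Clu and Gja1 and the ependymal Rsph4a fell, where 0.16% of all genes were called lower (log2 changes -1.01, -1.02, -1.35 and -1.19, limma adjusted p from 0.0053 to 0.044). These calls held under 18, 12, 6 and 5 of the 20 alternatives; without 1 array the Clu call was lost for WT replicate 1, HET replicate 2 and KO replicates 2 and 3 (limma, adjusted p 0.067 to 0.12), that of Gja1 for any array and that of Rsph4a for any array but KO replicate 1 (0.050 to 0.23).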

How the data were processed

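RNA of 9 arrays was compared, 3 per genotype. The values are on the log2 scale, as the authors deposited them, for 28940 probe sets without gaps. RMA, affy and limma are named in the submitters' processing notes, with no versions or order, and the probe annotation behind these values is not known here. RMA subtracts background, brings the arrays to a common distribution and combines probes into sets, so shifts of a whole array are reduced. They were not gone: the array medians still ran from 5.80 on KO replicate 3 to 5.92 on KO replicate 2. Depth has no meaning for arrays, and the number of arrays limits the precision.

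Gene names came from the supplied array annotation (21789 with 1 symbol, 1621 with several, 5530 not listed). Sets with 1 symbol were kept, with the highest-mean set for each of the 999 genes that had more than 1. limma 3.58.1 in R 4.3.3 fitted (lmFit, eBayes, two-sided) a mean per genotype to all 9 arrays and 19938 genes, with Benjamini-Hochberg adjustment over all genes. An adjusted p under 0.05 was a call. The script was tested on simulated data. Groups did not overlap where every array of one lay beyond every array of the other. The files name no genome build; promoter windows are those of the supplied RefSeq table on GRCm38.p6, and gene order comes from the RefSeq gene table of that assembly.

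The 10 genes and the 20 gene lists were chosen with earlier results of these data known. Genes named besides the 10 are Prdm16, of each list up to 3 genes by lowest unadjusted p for KO against WT, every list gene called in a comparison, and the 5 genes most alike to Cacna2d1 and to Cacng4 among those with an SD of at least that of the gene divided by 2. Neighbouring genes, the genes like Cacna2d3 and some further subunits and markers were named after their values had been seen. Not every gene that the rule allows is described. The alternatives changed the fit (replicate block, the groups compared alone, array weights, a robust and trended eBayes), the genes (no dimmest 1 in 3, averaged probe sets, every probe set), the scaling (quantiles, medians) or the arrays (1 left out). Detection calls were not used here.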

Additional observations from a re-analysis of the deposited data

How the results depend on the processing

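No called result reversed its direction under any of the 20 alternatives, of which 2 were chosen after seeing the data (Xist as a covariate, and HET replicate 1 left out with KO replicate 2). Over all named genes and settings, 4494 gene results kept their side of the threshold, 122 lost a call, 25 gained one, 15 uncalled ones moved by more than the spread between arrays and 0 reversed; the cause was not tested. The number of genes called in KO against WT, 90, became 33 with only the arrays of these genotypes, 151 with array weights, 50 without HET replicate 1 and KO replicate 2, and 23 to 77 without 1 array. In KO against HET, 41 became 8 with only the arrays of these genotypes, 21 with median centring, 24 with the Xist covariate and 12 to 75 without 1 array. The 1 call among the 10 calcium channel genes, Cacna2d1 in KO against WT, became 0 with only these genotypes, array weights, median centring, the Xist covariate, without HET replicate 1 and KO replicate 2, and 0 whichever 1 of the 9 arrays was left out. Among the other subunits, 0 calls in KO against WT became 1 with the dimmest genes left out, with the mean of probe sets, with the Xist covariate and without HET replicate 1 and KO replicate 2, 2 with array weights and 0 to 1 without 1 array. HET against WT gave 0 calls throughout.

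The replicate numbers share only a number: deviations of same-numbered arrays from their group means correlated at -0.34 to 0.055. With the replicate number as a block, KO against WT gave 72 calls, KO against HET 19 and HET against WT 0; Cacna2d1 had a limma adjusted p of 0.0084, and 1 other subunit, Cacng2, was called. The KO against WT difference of Cacna2d3, which was not called, ran from -0.24 to 0.37 and had the other sign in 3 settings. Values that are identical on several arrays, as for Cacna1g, limit what its differences can show.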
